A study of Homo sapiens with 6 samples.

Results

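GTPase-activating proteins (GAPs) and guanine nucleotide exchange factors (GEFs) are the regulators that switch small GTPases and G protein alpha subunits off and on. The genes described here were chosen by symbol alone: rows that name a single gene whose symbol begins with ARHGAP, ARHGEF, DOCK, RASA, RASGRP, RAPGEF, RALGAP or TBC1D, or with RGS and a digit, other than RGS1. This rule found 60 rows with 59 distinct symbols among the 6339 rows of the deposited table, since TBC1D3 stands on 2 rows. They comprise 12 ARHGAP, 9 ARHGEF, 4 DOCK, 4 RASA, 2 RASGRP, 5 RAPGEF, 2 RALGAP, 15 TBC1D and 7 RGS rows. Rows whose group means both lay under 1 FPKM were not tested, which kept 58 of them and left out RAPGEFL1 and the second TBC1D3 row.

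The cells were ME-1, an established human leukaemia line with inv(16), the inversion that fuses CBFB to MYH11 and makes the fusion protein CBFβ-SMMHC. All libraries come from this 1 line. The control group was cultured with DMSO, the solvent, and the treated group with AI-10-49, an inhibitor of CBFβ-SMMHC, at 1 µM. Both were cultured for 6 h, and each group holds 3 libraries from separate experiments, per the labels.

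A small GTPase is active while it holds GTP and inactive once that is hydrolysed to GDP. A GEF opens the nucleotide pocket so that GTP can enter, and a GAP speeds hydrolysis, so members of both classes set how long the switch stays on. ARHGEF and DOCK proteins load GTPases of the RhoA, Rac and Cdc42 family, which shape the actin cytoskeleton, and ARHGAP proteins turn them off. RASGRP and RAPGEF proteins load Ras and Rap, which carry growth and adhesion signals, RASA proteins act as GAPs for Ras and Rap, and RALGAP complexes for Ral. TBC1D proteins are mostly GAPs for Rab GTPases, which direct vesicle traffic, and RGS proteins are GAPs for the alpha subunits of heterotrimeric G proteins and so shorten signals from chemokine and other G protein-coupled receptors.

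Among the RGS genes that rose, RGS18, RGS13 and RGS2 lie in 1 run of genes on chromosome 1. The 250 bases before the RefSeq start of these 3 genes and of RGS16, which lies elsewhere on the same chromosome, are shown on the coding strand of each gene. RALGAPA1 is added because its promoter window holds a motif that few windows hold. The coordinates are those of RefSeq on GRCh38.p14 and are independent of the deposited table, which gives no coordinates. Capitals mark exact matches, on either strand, to TGTGGT (the core-binding factor motif), CACGTG (the E-box of MYC and MAX), TGACGTCA (the cyclic AMP response element, CRE) or TGACTCA (the AP-1 motif).
RGS18, chr1:192158212-192158461, plus strand: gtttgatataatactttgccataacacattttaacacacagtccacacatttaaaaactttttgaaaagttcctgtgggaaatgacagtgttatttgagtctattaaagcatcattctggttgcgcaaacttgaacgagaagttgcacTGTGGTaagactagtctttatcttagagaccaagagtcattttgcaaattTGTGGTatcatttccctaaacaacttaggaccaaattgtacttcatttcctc
RGS13, chr1:192635897-192636146, plus strand: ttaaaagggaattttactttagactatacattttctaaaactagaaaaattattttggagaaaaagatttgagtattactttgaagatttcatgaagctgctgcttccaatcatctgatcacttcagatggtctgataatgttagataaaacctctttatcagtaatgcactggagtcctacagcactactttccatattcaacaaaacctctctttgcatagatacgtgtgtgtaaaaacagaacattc
RGS2, chr1:192808789-192809038, plus strand: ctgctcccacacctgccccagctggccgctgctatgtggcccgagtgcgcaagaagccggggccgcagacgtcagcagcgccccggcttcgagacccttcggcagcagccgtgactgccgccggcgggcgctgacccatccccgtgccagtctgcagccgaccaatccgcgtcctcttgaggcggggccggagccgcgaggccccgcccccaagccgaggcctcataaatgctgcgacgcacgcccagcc
RGS16, chr1:182604390-182604639, minus strand: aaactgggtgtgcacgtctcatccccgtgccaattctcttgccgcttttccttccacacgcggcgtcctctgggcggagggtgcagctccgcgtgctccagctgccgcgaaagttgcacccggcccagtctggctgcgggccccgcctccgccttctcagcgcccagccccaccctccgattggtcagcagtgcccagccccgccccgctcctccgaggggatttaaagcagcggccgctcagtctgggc
RALGAPA1, chr14:35809296-35809545, minus strand: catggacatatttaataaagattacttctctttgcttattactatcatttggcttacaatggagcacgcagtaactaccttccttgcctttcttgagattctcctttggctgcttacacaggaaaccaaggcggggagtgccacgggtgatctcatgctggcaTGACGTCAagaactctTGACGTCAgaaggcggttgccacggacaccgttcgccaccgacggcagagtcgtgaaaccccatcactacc

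After 6 h with AI-10-49, 35 of the 58 tested GAP and GEF rows were higher and 20 were lower, and 3 did not pass the threshold (limma on log2(FPKM + 1), Benjamini-Hochberg adjusted p under 0.05). Of all 6230 tested rows, 46.2% were higher, 49.1% were lower and 95.3% passed in either direction, so passing is the rule in this table and only direction and size tell members apart. The rows appear to have been selected on these same libraries, so counts of calls hold for this table alone. The median log2 fold change was 0.40 over the 58 members and -0.28 over all tested rows. The largest rises were in ARHGEF10 and RGS13, and the largest falls on the log2 scale in ARHGAP22 and TBC1D30. A log2 fold change above 1 was reached by 6 members, against 5.79% of all rows, and 1 member lay below -1, against 8.06% of all rows. Of these 6, ARHGEF10 and RGS13 passed the filter only through AI-10-49 and could only count as higher. DOCK4 lay close to the cut (1.02, and 0.98 after quantile normalization). TBC1D30, which passed the filter only through DMSO, was at -0.99, at -1.01 without AI-10-49 replicate 2 and at -1.08 after quantile normalization. Since these are bulk libraries, fewer cells that use a gene and less of its RNA per cell cannot be told apart.

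**Figure D1:**
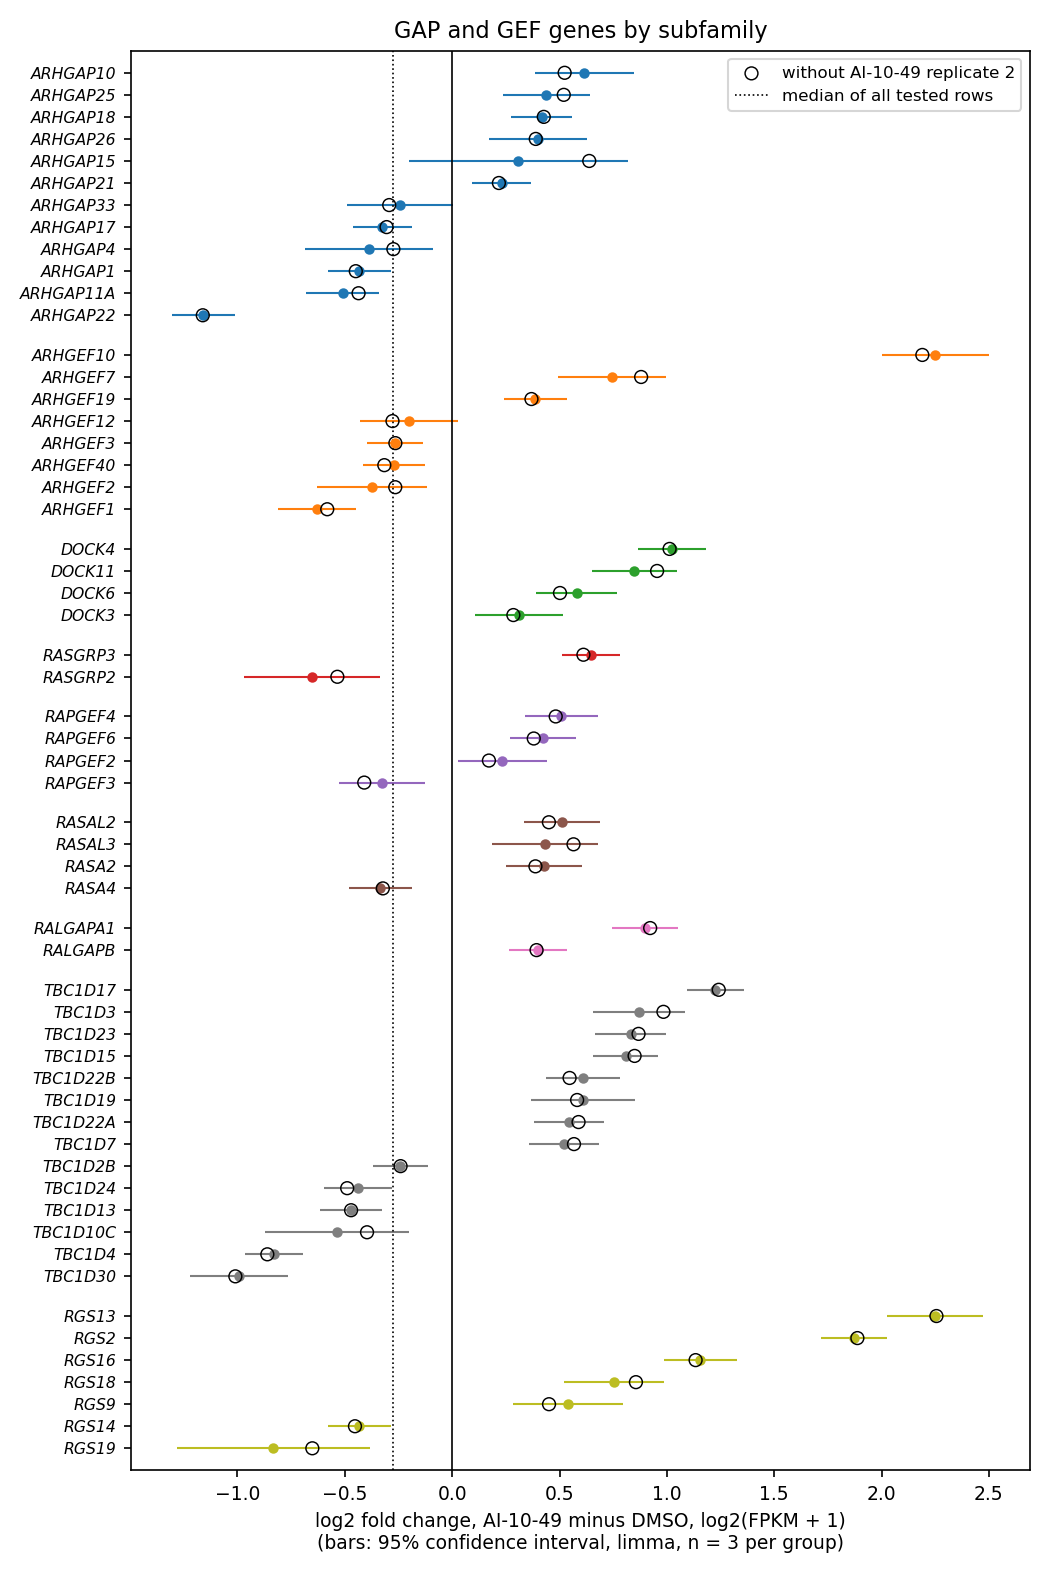
Log2 fold change (horizontal axis, AI-10-49 minus DMSO, on log2(FPKM + 1)) of the tested members by subfamily (1 ARHGEF gene is not shown), with 95% confidence intervals from limma (3 libraries per group), open circles for the fit without AI-10-49 replicate 2, and a dotted line at the median of all tested rows. RGS13 and ARHGEF10 (2.25 each) stand farthest to the right and ARHGAP22 (-1.16) farthest to the left, and all 4 DOCK genes lie right of 0.

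The members were also counted by their DMSO mean, which is itself part of the fold change, so these counts are a description. Of the 19 members with a DMSO mean under 5 FPKM, 16 were higher and 1 was lower, against 64.9% and 32.6% of all rows at that level. The 16 include ARHGEF10, RGS9 and RGS13, which passed the filter only through AI-10-49 and could only count as higher. Without AI-10-49 replicate 2, and after quantile normalization, 3 of these low members were lower. Among the 24 members from 5 to 25 FPKM, 15 were higher and 9 lower, against 55.9% and 44.0% of all such rows. The 8 members from 25 to 50 FPKM gave 4 higher and 4 lower, against 34.3% and 65.0% of all such rows. None of the 7 members of 50 FPKM or more was higher, 6 were lower and 1 did not pass, against 5.33% higher and 68.8% lower among all rows at that level. Of these 7, 1 was higher and 6 were lower without AI-10-49 replicate 2, and 1 was higher and 4 were lower after quantile normalization. Over all 956 rows at that level, 51 were higher with all libraries, 105 without that library and 126 after quantile normalization. At each of these levels except the highest, the share of members that were higher was above that of all rows, and these shares were not tested.

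AI-10-49 replicate 2 stands apart from the other libraries, since it reads low in abundant rows. It lay below both other AI-10-49 libraries in 12 of the 15 members of at least 25 FPKM with DMSO, where its median was 79.2% of the mean of the other two, and in 9 of the 45 members below that level, where its median was 105%. Without it, 36 members were higher and 22 lower (background 46.4% and 51%), with TBC1D3's second row then tested. Quantile normalization moved the median of all rows from -0.28 to -0.06 and that of the members from 0.40 to 0.395, and no member changed sign. After it 36 members were higher and 20 lower, against 46.9% and 48% of all rows. Of 19 myeloid markers 13 had a row, and their summed level was 801 to 908 FPKM with DMSO and 328 to 460 FPKM with AI-10-49. PTPRC (log2 fold change 0.61) and FLT3 (0.29) were higher, SPI1 did not pass (-0.47), and the other 10, CEBPA, KIT and CD33 among them, were lower. Of 8 T and NK markers 3 had a row (CD3D, CD3E and CD4; sum 48.3 to 50.03 and 29.3 to 31.1 FPKM), of 5 B cell markers 2 (CD79A and CD79B; 24.8 to 29.96 and 8.72 to 10.6 FPKM), of 6 erythroid markers 1 (KLF1; 8.76 to 9.60 and 3.28 to 4.004 FPKM) and of 8 epithelial and stromal markers 0. Depth is unknown for every library, so precision rests on the spread between libraries.

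Among the RGS genes, 5 of 7 (71.4%) rose and 2 fell, with a median log2 fold change of 0.75. Of all tested rows 46.2% were higher and 49.1% lower, and of those under 5 FPKM with DMSO 64.9% were higher. The median DMSO level of the RGS genes was 4.08 FPKM. RGS9 and RGS13 passed the filter only through AI-10-49 and could only count as higher. RGS13, which is known from mast cells and germinal centre B cells, stood at 0.239, 0.214 and 0.456 FPKM with DMSO and at 4.98, 5.14 and 5.43 FPKM with AI-10-49. It was barely present in the control libraries and its groups lie far apart. The mean FPKM was 17.1-fold higher, and the log2 fold change was 2.25 ± 0.10 (SE, adjusted p = 1.08e-09), or 3.76 with a pseudocount of 0.1. The B cell markers CD79A and CD79B and the mast cell markers KIT and MS4A2 were lower with AI-10-49 (KIT 82.8 and 39.9 FPKM, MS4A2 6.27 and 1.71 FPKM, as group means), and their part in the level of RGS13 was not tested.

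RGS2, which acts mainly on Gq, read 4.11, 4.40 and 3.73 FPKM with DMSO and 17.3, 17.2 and 18.2 FPKM with AI-10-49. All treated libraries were higher than all controls, with little spread in either group. The log2 fold change was 1.87 ± 0.07 (SE, adjusted p = 1.94e-10). With 3 libraries against 3, an exact two-sided permutation test cannot go below 0.1, and for RGS2 it gave p = 0.1. RGS16, a GAP for Gi and Gq subunits, went from 2.97, 3.42 and 3.52 FPKM to 8.84, 8.86 and 8.03 FPKM, a log2 fold change of 1.16 ± 0.08 (SE). RGS18, known from platelets and megakaryocytes, was already abundant at 28.3, 25.1 and 30.9 FPKM and rose to 48.8, 41.5 and 54.3 FPKM. Its lowest treated library, replicate 2, was still above its highest control, and the log2 fold change was 0.75 ± 0.11 (SE), or 0.86 without that library. RGS9, best known from the retina and striatum, had little RNA in either group, at 0.870 ± 0.10 and 1.73 ± 0.34 FPKM (SD, n = 3), with a log2 fold change of 0.54 (0.90 with a pseudocount of 0.1).

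RGS19 and RGS14, which both act on Gi subunits, fell. RGS19 had the highest DMSO level of all members, at 127, 120.1 and 145 FPKM, and read 84.4, 56.2 and 80.7 FPKM with AI-10-49. The groups do not overlap, and replicate 2 is the lowest treated library. Its log2 fold change was -0.83 ± 0.21 (SE, adjusted p = 0.00201), -0.65 without that library and -0.36 after quantile normalization, so the direction held while the size did not. RGS14 changed from 25.5, 25.6 and 27.4 FPKM to 17.9, 19.7 and 19.8 FPKM (log2 fold change -0.43 ± 0.07 SE). The RGS sum over the 7 member genes was 180 to 211 FPKM with DMSO and 151 to 188 FPKM with AI-10-49. It leaves out RGS1, which rose from 4.15 to 45.6 FPKM (group means), so it does not give the direction of all RGS RNA. RGS19 is the largest single part of that sum in every library.

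**Figure D2:**
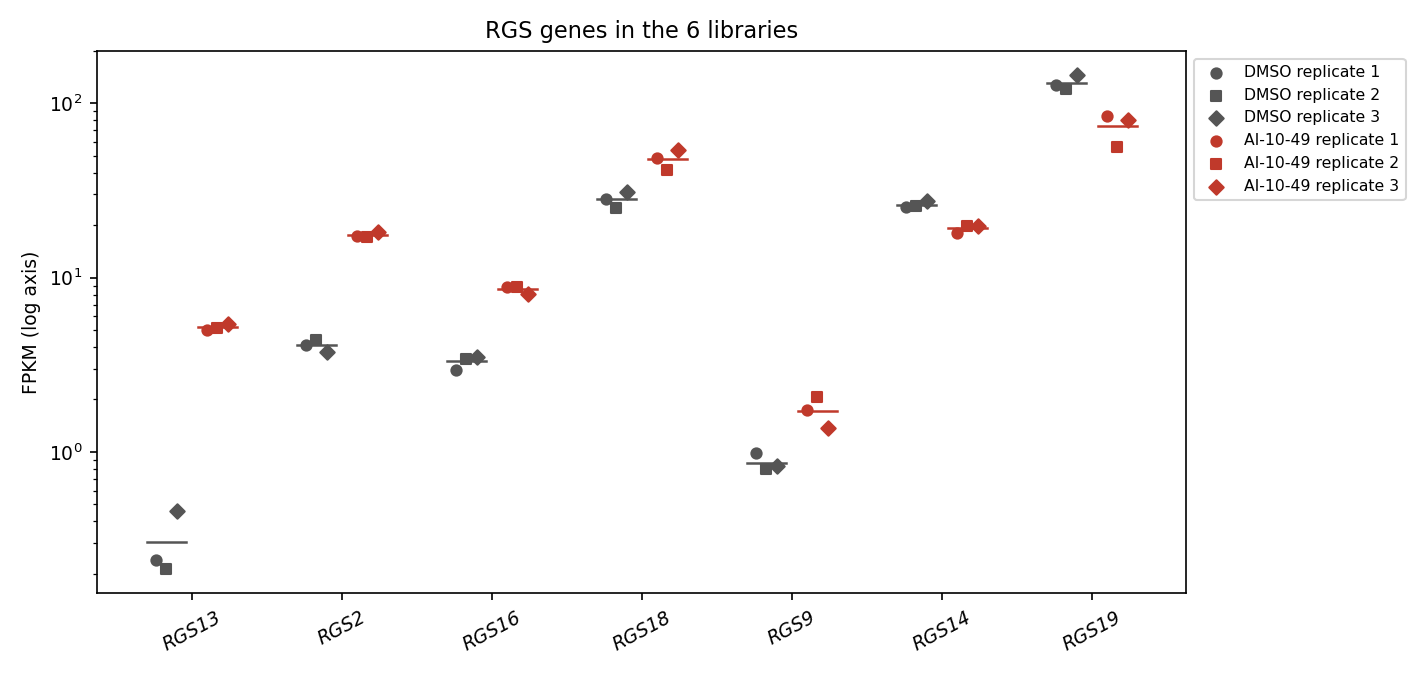
FPKM (log axis) of the 7 RGS genes by library (grey for DMSO, red for AI-10-49), with 1 symbol per replicate and horizontal lines at the group means. RGS13, RGS2, RGS16, RGS18 and RGS9 are higher in all 3 AI-10-49 libraries than in any control, and RGS14 and RGS19 are lower in all 3.

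In the RefSeq annotation of GRCh38.p14 the protein-coding genes RGS18, RGS21, RGS1, RGS13 and RGS2 follow each other on chromosome 1 with no other protein-coding gene between them. RGS1, not counted among the members, rose from 4.15 to 45.6 FPKM (group means, log2 fold change 3.17). The 4 genes of this run with a row were therefore all higher, by 1.72-fold for RGS18, 11.0-fold for RGS1, 17.1-fold for RGS13 and 4.30-fold for RGS2 in mean FPKM. Of all tested rows 46.2% were higher, and RGS13 passed the filter only through AI-10-49. Of the protein-coding genes looked up on either side of the run, only PTGS2 had a row. PTGS2 was higher too (0.549 and 2.19 FPKM as group means, log2 fold change 1.04), and it also passed the filter only through AI-10-49. RGS21 and the next protein-coding genes on either side, BRINP3 and UCHL5, were not analysed here, and the order of the genes was looked up after their values were seen. Among the other members no further pair stands side by side or with 1 protein-coding gene between.

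The promoter windows shown above differ in composition within this run. G and C made up 34.8% of the window of RGS18 and 32.0% of that of RGS13, below the tenth percentile of all 35116 windows in the RefSeq table (38%), and 72.8% of that of RGS2, above the median of all windows (58%). RGS18 holds TGTGGT at both marked places, and 0.971% of all windows hold that motif more than once. RGS13, RGS2 and RGS16 hold none of the 4 motifs in these 250 bases. Promoter windows were found for 48 of the 59 symbols, 84 windows in all because some genes have several starts. TGTGGT was in 7 of 51 windows of members that rose, in 1 of 29 windows of members that fell and in 11.0% of all windows. CACGTG was in 3 of 51, 3 of 29 and 6.34% of windows, and TGACTCA was in no member window and in 4.20% of all windows. These are matches of letters, and no binding was measured.

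DOCK genes, which encode a family of GEFs for Rac and Cdc42 unrelated in sequence to the ARHGEF family, rose in all 4 members, with a median log2 fold change of 0.71. Of all tested rows 46.2% were higher. The share was 64.9% under 5 FPKM with DMSO, where DOCK3, DOCK4 and DOCK6 lie, and 55.9% from 5 to 25 FPKM, where DOCK11 lies. DOCK4, a Rac exchange factor, went from 4.09, 3.60 and 3.53 FPKM to 8.52, 8.79 and 8.58 FPKM (log2 fold change 1.02 ± 0.07 SE, adjusted p = 5.57e-08). DOCK11, which loads Cdc42, was the most abundant, at 24.1, 22.5 and 22.7 FPKM with DMSO and 46.5, 36.5 and 44.9 FPKM with AI-10-49 (0.85 ± 0.09 SE). In neither gene do the groups overlap, and in DOCK11 replicate 2 is the lowest treated library. DOCK6, for Rac and Cdc42, rose by 0.58 on the log2 scale (2.97 ± 0.12 FPKM with DMSO, 4.95 ± 0.57 with AI-10-49, SD, n = 3). DOCK3, known mainly from neurons, rose by 0.31 (1.59 ± 0.09 and 2.22 ± 0.20 FPKM). Summed over these 4 rows, the level was 30.6 to 32.8 FPKM with DMSO and 53.2 to 61.6 FPKM with AI-10-49. DOCK genes without a row are not in this sum, so it does not give total DOCK RNA. ELMO proteins, partners of some DOCK proteins, are on the list of other exchange factors for the RhoA family, where ELMO1 rose by 0.33 and ELMO3 fell by 0.37 on the log2 scale (both named after their values were seen).

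ARHGEF genes divided evenly, with 4 higher, 4 lower and 1 not past the threshold among 9 (all tested rows: 46.2% higher, 49.1% lower). ARHGEF10, an exchange factor for RhoA, was close to absent with DMSO at 0.136, 0.291 and 0.337 FPKM and read 4.18, 5.49 and 5.29 FPKM with AI-10-49. No other member had a lower DMSO mean. Its mean FPKM was 19.6-fold higher, and its log2 fold change was 2.25 ± 0.11 (SE, adjusted p = 2.8e-09), or 3.88 with a pseudocount of 0.1. ARHGEF7, known as beta-PIX, which links Rac and Cdc42 to PAK kinases, rose from 34.7, 34.5 and 31.5 FPKM to 63.5, 47.0 and 61.8 FPKM. Every treated library was above every control, with replicate 2 the lowest (log2 fold change 0.74 ± 0.12 SE, and 0.88 without it). ARHGEF19 rose by a smaller amount (0.39).

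Of the 4 ARHGEF genes that fell, ARHGEF1 changed most. ARHGEF1, known as p115-RhoGEF, which couples G protein alpha subunits to RhoA and carries an RGS-like domain, went from 50.1, 52.6 and 50.6 FPKM to 34.8, 30.5 and 32.8 FPKM (log2 fold change -0.63 ± 0.08 SE, adjusted p = 1.57e-05). ARHGEF2, the microtubule-bound GEF-H1, went from 65.4, 64.5 and 63.9 FPKM to 53.5, 42.4 and 53.6 FPKM. Its groups do not overlap, and its log2 fold change of -0.37 ± 0.12 (SE, adjusted p = 0.00856) was -0.10 after quantile normalization and no longer passed (adjusted p = 0.0753). ARHGEF40 (-0.27) and ARHGEF3 (-0.27) fell less. ARHGEF12, known as LARG and related to ARHGEF1, read 2.23, 2.22 and 1.91 FPKM with DMSO and 1.69, 2.02 and 1.46 FPKM with AI-10-49. Its groups overlap, and its log2 fold change of -0.20 (95% confidence interval -0.43 to 0.03, adjusted p = 0.0818) was -0.28 without AI-10-49 replicate 2 (adjusted p = 0.0175).

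ARHGAP genes also went both ways, with 5 higher, 5 lower and 2 not past the threshold among 12 (all tested rows: 46.2% higher, 49.1% lower). Their median log2 fold change was -0.01 (0.06 after quantile normalization). ARHGAP22, a GAP for Rac, had the largest fall of all members on this scale. It stood at 27.1, 26.2 and 29.7 FPKM with DMSO and at 12.3, 11.9 and 11.4 FPKM with AI-10-49. All treated libraries lay well below the controls (2.34-fold lower, log2 fold change -1.16 ± 0.07 SE, adjusted p = 8.53e-09). ARHGAP11A, a RhoA GAP of dividing cells that has a near-identical partial copy, ARHGAP11B, fell by 0.51 on the log2 scale (34.0 ± 0.56 FPKM with DMSO, 23.6 ± 2.23 with AI-10-49, SD, n = 3). The sources used here do not give how reads were divided between such copies. ARHGAP1, a GAP for Cdc42, changed by -0.43 and ARHGAP17 by -0.33. ARHGAP4, a gene of blood cells, changed from 69.0, 81.0 and 73.1 FPKM to 64.0, 48.0 and 58.5 FPKM, which is -0.39 ± 0.14 on the log2 scale (SE, adjusted p = 0.0159). This value did not pass after quantile normalization (-0.06, adjusted p = 0.449) or without DMSO replicate 2 (-0.33, adjusted p = 0.078).

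The ARHGAP genes that rose were ARHGAP10 (log2 fold change 0.62), ARHGAP25 (0.44), ARHGAP18 (0.42), ARHGAP26 (0.40) and ARHGAP21 (0.23). ARHGAP25, a Rac GAP of phagocytes, went from 35.8, 32.6 and 33.5 FPKM to 47.3, 41.3 and 51.0 FPKM. Its treated libraries were all above its controls. ARHGAP18, a GAP for RhoA, went from 13.4, 12.1 and 13.03 FPKM to 16.7, 17.2 and 18.4 FPKM. ARHGAP26, known as GRAF and as a fusion partner of KMT2A in leukaemia, was at 1.05 ± 0.17 and 1.70 ± 0.04 FPKM (SD, n = 3), and its change was 0.66 with a pseudocount of 0.1.

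ARHGAP15, a Rac GAP of leukocytes, depended on 1 library for its call. It read 69.8, 70.4 and 77.0 FPKM with DMSO and 109, 56.4 and 117 FPKM with AI-10-49, so replicate 2 lay below every control and the other two treated libraries above them. With all libraries the log2 fold change was 0.31 (95% confidence interval -0.20 to 0.82, adjusted p = 0.217), and without AI-10-49 replicate 2 it was 0.64 (adjusted p = 5.18e-06). After quantile normalization with all libraries it was 0.68 (adjusted p = 6.95e-05). ARHGAP33, the other ARHGAP gene that did not pass, read 4.48, 5.74 and 4.04 FPKM and then 4.14, 4.15 and 3.22 FPKM. Its groups overlap, and its log2 fold change was -0.24 (adjusted p = 0.0543). It passed without AI-10-49 replicate 1 (adjusted p = 0.0468), without AI-10-49 replicate 2 (0.0436), without DMSO replicate 3 (0.017), with the replicate number as a block (0.0133), after median scaling (0.0492) and after quantile normalization (0.0385).

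**Figure D3:**
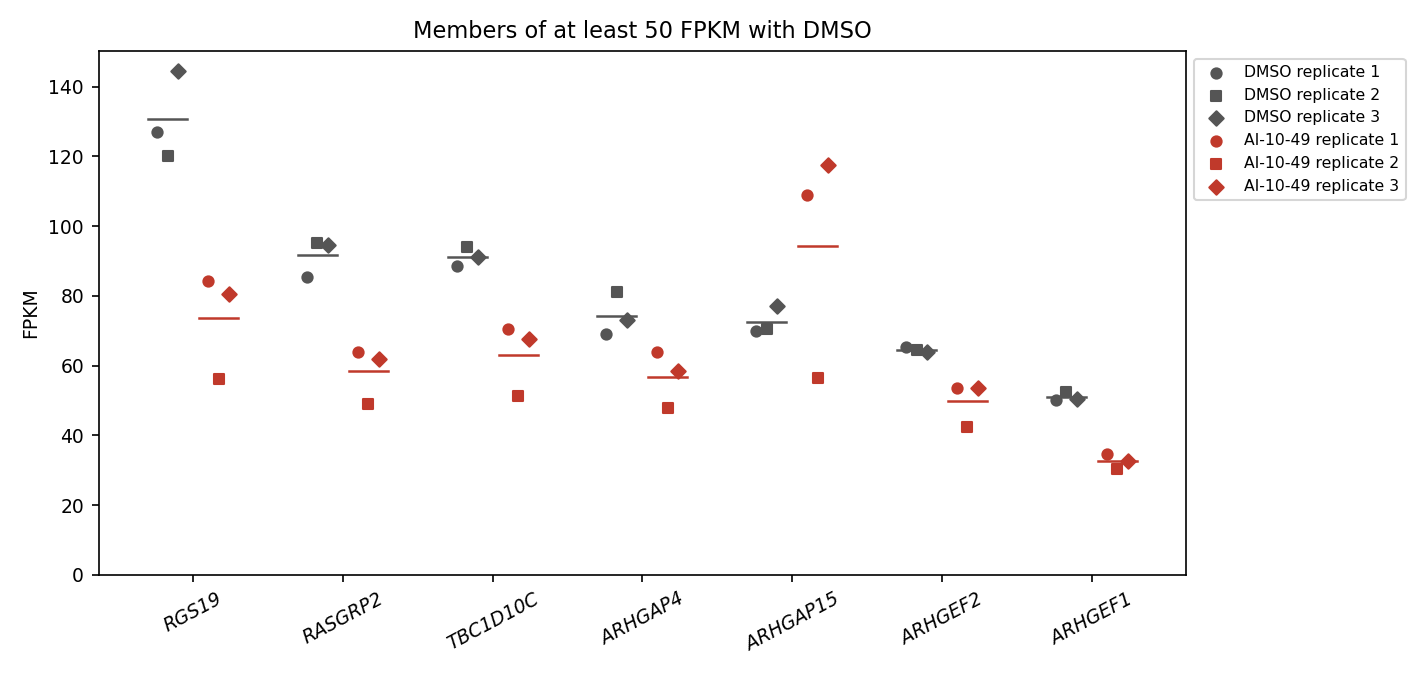
FPKM of the 7 members with a DMSO mean of at least 50 FPKM by library (grey for DMSO, red for AI-10-49), with 1 symbol per replicate and lines at the group means. AI-10-49 replicate 2 (red squares) is the lowest treated library in all 7, and in ARHGAP15 it lies at 56.4 FPKM against 109 and 117 FPKM in the others.

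RASGRP genes encode exchange factors that respond to diacylglycerol or calcium, and their 2 members moved apart. RASGRP2, known as CalDAG-GEFI and an activator of Rap1 in platelets and neutrophils, went from 85.3, 95.2 and 94.7 FPKM to 63.9, 49.1 and 62.0 FPKM. RASGRP3, which loads Ras and Rap, went from 10.2, 10.7 and 10.3 FPKM to 16.4, 17.7 and 16.4 FPKM. In both the groups lie apart, RASGRP2 lower and RASGRP3 higher with AI-10-49. The log2 fold change was -0.65 ± 0.15 (SE, adjusted p = 0.000994) for RASGRP2, or -0.28 after quantile normalization, and 0.65 ± 0.06 (SE, adjusted p = 8.07e-07) for RASGRP3. RASGRP2 remained the more abundant of them with AI-10-49, at 58.3 against 16.8 FPKM.

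RAPGEF genes rose in 3 and fell in 1 of 4 tested members, against 46.2% higher and 49.1% lower among all tested rows. RAPGEF4 and RAPGEF3 encode EPAC2 and EPAC1, the exchange factors for Rap that cyclic AMP activates. RAPGEF4 went from 3.19, 2.84 and 3.15 FPKM to 4.72, 4.98 and 4.61 FPKM (log2 fold change 0.51 ± 0.08 SE), and RAPGEF3 from 5.49, 5.22 and 5.28 FPKM to 4.14, 4.67 and 3.41 FPKM (-0.33 ± 0.09 SE). In the controls RAPGEF3 was thus above RAPGEF4 in every library, and with AI-10-49 the order was reversed in every library (replicate 2 by 4.98 against 4.67 FPKM). RAPGEF6 rose by 0.42. RAPGEF2, its close relative, changed by 0.23 ± 0.10 (SE, adjusted p = 0.0329), from 2.08 ± 0.19 to 2.62 ± 0.28 FPKM (SD, n = 3). Its call was lost without AI-10-49 replicate 2 (0.17, adjusted p = 0.0953), AI-10-49 replicate 3 (adjusted p = 0.0513), DMSO replicate 1 (adjusted p = 0.0682) or DMSO replicate 3 (adjusted p = 0.113). RAPGEFL1, left out by the filter, read 0.610 ± 0.06 and 0.928 ± 0.26 FPKM (SD, n = 3), and its groups overlap.

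RASA genes, which encode GAPs for Ras, rose in 3 and fell in 1 of 4 members (all tested rows: 46.2% higher, 49.1% lower). RASAL3, a Ras GAP of blood cells, was the most abundant, at 39.4, 40.9 and 39.5 FPKM with DMSO and 60.1, 45.1 and 59.1 FPKM with AI-10-49 (log2 fold change 0.43 ± 0.11 SE). Its treated libraries were all above its controls, with replicate 2 the lowest. RASAL2 (0.51) and RASA2 (0.43) rose from 3.46 ± 0.19 and 3.85 ± 0.35 FPKM to 5.35 ± 0.47 and 5.51 ± 0.35 FPKM (SD, n = 3). RASA4, a calcium-responsive Ras GAP, fell by 0.33 on the log2 scale (12.3 ± 0.32 FPKM with DMSO, 9.54 ± 0.69 with AI-10-49, SD, n = 3). RASA4 has near-identical copies in the genome, so its value is uncertain.

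Both RALGAP genes rose, where 46.2% of all tested rows were higher. RALGAPA1, a catalytic subunit of the Ral GAP complex, went from 6.20, 5.59 and 5.37 FPKM to 12.0, 11.1 and 11.4 FPKM, a 2.01-fold higher mean (log2 fold change 0.90 ± 0.07 SE, adjusted p = 1.27e-07). RALGAPB, the subunit that catalytic subunits share, went from 16.4, 16.1 and 15.0 FPKM to 21.7, 21.4 and 20.5 FPKM (0.40 ± 0.06 SE). Neither gene's groups overlap, and in both the 3 treated libraries lie close together. The promoter window of RALGAPA1 printed above holds the CRE sequence TGACGTCA at 87 to 80 and again at 71 to 64 bases before the start. Of all windows 1.65% hold this motif and 0.0541% hold it more than once. No other member window holds it, so the share is 1 of 84 member windows (1.19%), below that of all windows. RALGAPA1 was picked for this match.

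TBC1D genes rose in 8 (57.1%) and fell in 6 (42.9%) of 14 tested rows, with a median log2 fold change of 0.53. Among all tested rows 46.2% were higher and 49.1% lower, and among those from 5 to 25 FPKM with DMSO 55.9% and 44.0%. TBC1D17, a Rab GAP linked to endosomal recycling and autophagy, went from 7.87, 8.01 and 7.91 FPKM to 20.9, 19.4 and 19.3 FPKM. Its controls were nearly equal, and its mean was 2.51-fold higher (log2 fold change 1.23 ± 0.06 SE, adjusted p = 2.47e-09). TBC1D23, which tethers endosome-derived vesicles at the Golgi, went from 19.8, 17.1 and 17.9 FPKM to 32.6, 31.5 and 35.7 FPKM (0.83 ± 0.08 SE). TBC1D15, a GAP for Rab7, went from 9.39, 8.46 and 9.24 FPKM to 16.5, 15.5 and 17.7 FPKM (0.81 ± 0.07 SE). All of these treated libraries lie above the controls of the same gene.

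TBC1D3 belongs to a cluster of near-identical copies in hominoid genomes, so its values are uncertain. Its tested row had a log2 fold change of 0.87 (6.64 ± 0.74 FPKM with DMSO and 13.01 ± 1.87 with AI-10-49, SD, n = 3), and its second row read 0.406 ± 0.03 and 0.920 ± 0.20 FPKM. The other risers were TBC1D19 (0.61), TBC1D22B (0.61), TBC1D22A (0.54) and TBC1D7 (0.52), the last a subunit of the TSC complex that restrains mTORC1. TBC1D7 was the most abundant riser of the subfamily, at 24.2 ± 1.37 and 35.1 ± 2.01 FPKM (SD, n = 3).

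Of the TBC1D genes that fell, TBC1D30, a Rab GAP that acts at the primary cilium, changed most. It read 2.19, 2.32 and 2.08 FPKM with DMSO and 0.487, 0.648 and 0.692 FPKM with AI-10-49. Its mean was 3.61-fold lower, the largest fold in mean FPKM among members that fell, and its log2 fold change was -0.99 ± 0.10 (SE, adjusted p = 1.84e-06), or -1.71 with a pseudocount of 0.1. TBC1D4, known as AS160, a target of AKT that controls glucose transporter traffic, went from 20.3, 20.9 and 21.3 FPKM to 11.3, 11.8 and 10.8 FPKM (-0.83 ± 0.06 SE). TBC1D10C, known as carabin, which restrains calcineurin and Ras in lymphocytes, went from 88.6, 93.9 and 91.2 FPKM to 70.5, 51.4 and 67.6 FPKM. In all 3 genes the groups lie apart, and in TBC1D10C replicate 2 is again the lowest. The log2 fold change of TBC1D10C was -0.54 ± 0.15 (SE, adjusted p = 0.00514) and -0.15 after quantile normalization. TBC1D13 (-0.47), TBC1D24 (-0.44) and TBC1D2B (-0.24) fell as well.

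**Figure D4:**
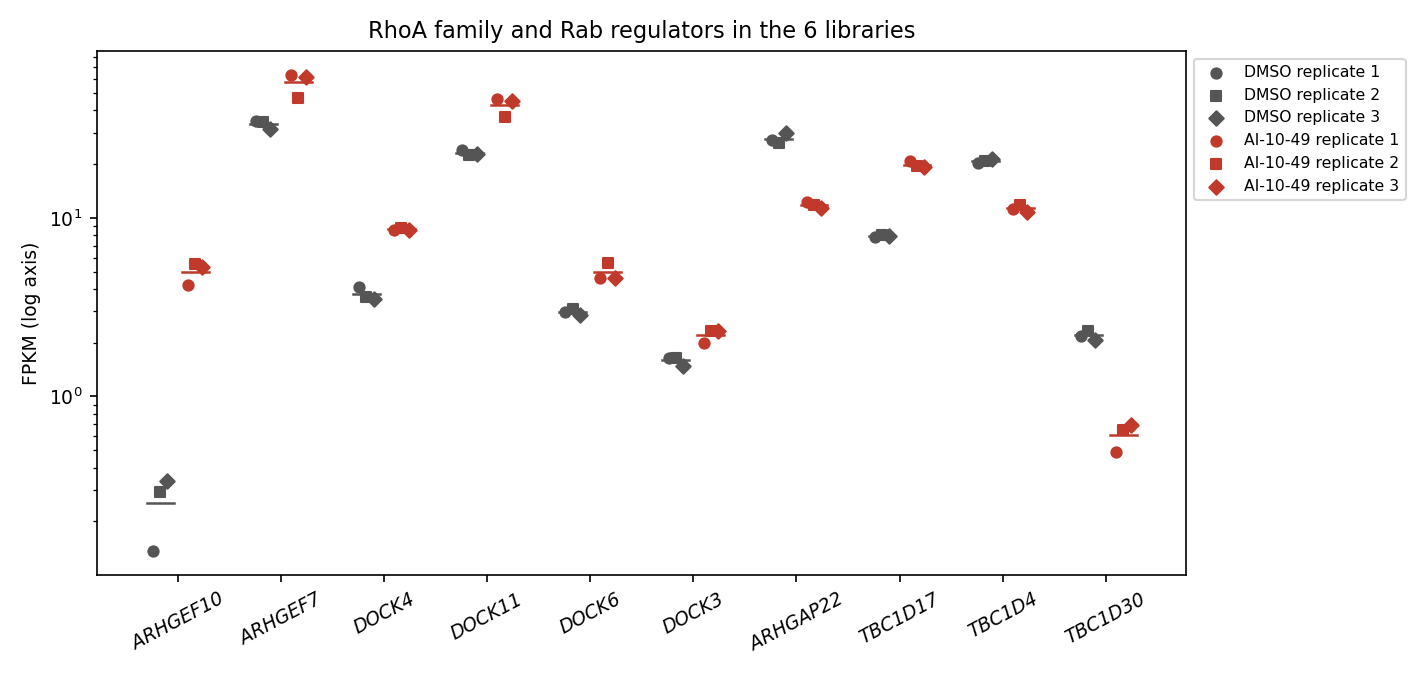
FPKM (log axis) of 10 regulators of RhoA family and Rab GTPases by library (grey for DMSO, red for AI-10-49), with 1 symbol per replicate and lines at the group means. ARHGEF10 rises from a mean of 0.255 to 4.99 FPKM, the 4 DOCK genes are higher in every AI-10-49 library, and ARHGAP22, TBC1D4 and TBC1D30 are lower in every one.

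Role and target were assigned by subfamily alone, so every TBC1D row counts here as a GAP for Rab. Set by role, 23 of 39 tested GAP rows were higher and 14 lower, with a median log2 fold change of 0.42. Of the tested GEF rows, 12 of 19 were higher and 6 lower, with a median of 0.39. By target, the regulators of RhoA family GTPases had 13 higher and 9 lower of 25 (median 0.31), those of Ras, Rap and Ral 9 higher and 3 lower of 12 (0.43), those of Rab 8 and 6 of 14 (0.53) and those of G alpha subunits 5 and 2 of 7 (0.75). Of all tested rows 46.2% were higher and 49.1% lower, and the differences between classes were not tested. The groups did not overlap in 55 of 58 members, against 96.2% of all tested rows, and the exceptions were ARHGAP15, ARHGAP33 and ARHGEF12. Of the tested members, 3 (ARHGEF10, RGS9 and RGS13) passed the filter only through AI-10-49 and 1 (TBC1D30) only through DMSO, so each of these 4 was tested only because of the group where it is high.

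The GTPases themselves and their other regulators were counted on lists set up beside the members. The background for every list is all tested rows, of which 46.2% were higher and 49.1% lower. Differences between the lists and this background were not tested. Of 9 tested RhoA family GTPases 3 rose, 5 fell and 1 did not pass. The last, RHOG (0.26, adjusted p = 0.471), passed as higher without AI-10-49 replicate 2 (0.63, adjusted p = 9.22e-06) and after quantile normalization (0.92, adjusted p = 2.48e-06), so that 4 then rose. RND1 (log2 fold change 1.37) and RHOB (1.35), an unusual constitutively active GTPase and a short-lived relative of RhoA, rose most in each of these fits. RAC2, the Rac of blood cells and target of several members, changed from 239 to 123 FPKM (group means, log2 fold change -1.001 ± 0.39 SE, adjusted p = 0.0261). Its value was -0.72 without AI-10-49 replicate 2 (adjusted p = 3.81e-06) and -0.34 after quantile normalization (adjusted p = 0.00134). With AI-10-49 replicate 2 kept, RAC2 did not pass without DMSO replicate 1, 2 or 3 (adjusted p = 0.0939, 0.0955 and 0.106). RHOBTB3 fell by 0.68 on the log2 scale. When DMSO replicate 3 was left out, 3 of the 9 fell in place of 5. ARHGDIA, the tested GDP dissociation inhibitor, which holds RhoA and its relatives in the cytosol, fell by 1.10 on the log2 scale, and by 0.58 after quantile normalization.

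Of 12 tested Ras, Rap and Ral GTPases 5 rose, 6 fell and 1 did not pass. With all libraries RIT1 (0.78) and RRAS2 (0.74) were highest and DIRAS1 (-0.94) and RASL10A (-0.67) lowest. RAP1A, which did not pass (0.44, adjusted p = 0.144), was above RIT1 without AI-10-49 replicate 2 (0.84, adjusted p = 1.26e-06) and after quantile normalization (0.84), and passed with the replicate block (adjusted p = 0.0421). RHEB fell (-0.35) but did not pass without that library (-0.15, adjusted p = 0.0634) or after quantile normalization (-0.19). Of 11 tested G protein subunits 3 rose, 6 fell and 2 did not pass. This list holds alpha, beta and gamma subunits, and RGS proteins are GAPs for the alpha subunits alone. GNA13, an activator of ARHGEF1, changed by 0.70 and GNG2 by 0.48, and GNB4 by -0.68 and GNG11 by -0.62. The subunits that did not pass with all libraries, GNAI2 (-0.67) and GNA15 (0.35), passed without AI-10-49 replicate 2, at -0.35 and 0.65. After quantile normalization GNAI2 was at -0.02 and did not pass (adjusted p = 0.789), and GNA15 was at 0.92 (adjusted p = 4.53e-06).

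Among 14 tested effectors of the RhoA family 9 rose and 5 fell, with RTKN (0.93) and DAAM1 (0.92), which bind active RhoA, highest, and LIMK2 (-0.52) and PKN3 (-0.51), both kinases, lowest. Other exchange factors of this family and their partners rose in 10 and fell in 5 of 15, with SWAP70 (0.84), FGD6 (0.73, or 1.64 with a pseudocount of 0.1) and VAV2 (-0.55) among them. Other GAPs of this family rose in 4 and fell in 5 of 9, with CHN2 (1.15, or 2.103 with a pseudocount of 0.1), FAM13B (1.06), STARD13 (-0.91) and SH3BP1 (-0.90). Other regulators of Ras, Rap and Ral rose in 5 and fell in 6 of 11, with SIPA1L1 (1.39) and RASSF5 (0.69) higher and SIPA1 (-0.77) lower. SIPA1L1 and SIPA1 are both GAPs for Rap. On these lists, FGD6 and CHN2 passed the filter only through AI-10-49 and could only count as higher. ELMO3, among the other exchange factors and partners, passed it only through DMSO and could only count as lower.

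**Figure D5:**
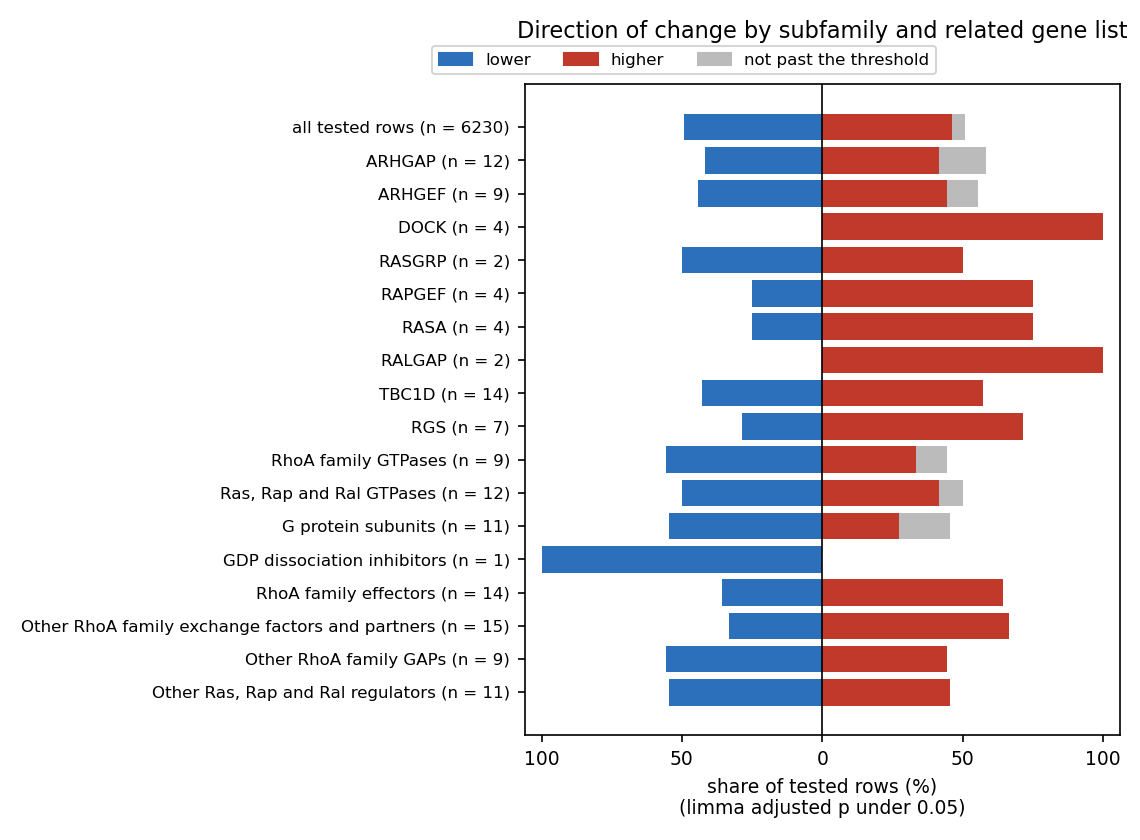
Share of tested rows (horizontal axis, %) with each call, where blue bars run left for rows lower with AI-10-49, red bars run right for higher rows, and grey marks rows without a call, for all tested rows, the 9 subfamilies and 8 related gene lists. All tested rows stand at 49.1% lower and 46.2% higher, and DOCK (4 rows) and RALGAP (2 rows) are higher throughout.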

How the data were processed

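Gene expression was measured by RNA-seq in 6 libraries of ME-1 cells, 3 per treatment. Per the submitters' processing notes, Bowtie2 2.1.0, Cufflinks 2.2.0 and Cuffdiff were used with genome build hg19. The deposited FPKM (fragments scaled by transcript length and by mapped fragments) are the authors' values. The sources used here give neither how the rows were selected nor whether counting used strand. No columns were left unused.

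FPKM were analysed as log2(FPKM + 1) with limma 3.58.1 in R 4.3.3 (mean-variance trend, two-sided, Benjamini-Hochberg over all 6230 tested rows, threshold 0.05). This scale understates changes of low genes. The procedure was tested on data simulated from the DMSO means and spread, with 200 rows changed. That setting differs from this table, where 95.3% of rows passed and AI-10-49 replicate 2 stands apart, so it does not check these p-values. The p-values measure the spread between these libraries. Members, lists and rules were chosen with earlier results of these data known. Named were up to 4 higher and 4 lower called members per subfamily, those not called or filtered out, the 3 most abundant, and up to 2 per direction in each list. Members named beyond these (ARHGAP21, TBC1D2B, TBC1D24, TBC1D7, TBC1D19, TBC1D22A and TBC1D22B among them) were chosen after their values were seen. Some genes that this rule names are not reported here. Alternatives were quantile normalization, median scaling, a pseudocount of 0.1, a filter at 5 FPKM or none, no trend, the replicate block and leaving out each library. Tables and plots used Python 3.11.15 with pandas 2.3.3, SciPy 1.17.1 and Matplotlib 3.10.9.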

Additional observations from a re-analysis of the deposited data

How the results depend on the processing

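Across all alternatives 26 to 36 members were higher and 19 to 22 lower. Of 800 values of single members under alternatives, 778 kept direction and side of the threshold, 9 lost the call, 13 gained it and none reversed. A filter at 5 FPKM tests fewer rows, and it left 26 higher members, with 3 higher ARHGAP, 2 higher DOCK and 1 higher RAPGEF genes and 3 lower genes among other exchange factors for the RhoA family. Leaving out single libraries gave 3 to 5 lower RhoA family GTPases. The replicate number as a block gave 35 higher and 21 lower members. Deviations of same-numbered libraries correlated at -0.15, 0.147 and 0.247 across rows, so the numbers were not treated as pairs. Depth is unknown, so it sets no stated limit on low values such as RGS13 and ARHGEF10 with DMSO.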

Other observations

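A further 3 rows of the table each name several genes, including a GAP gene of the subfamilies described, and were left out because such a value cannot be assigned to a single gene. The row of CD2BP2 and TBC1D10B read 57.0 ± 2.09 FPKM with DMSO and 40.5 ± 0.22 FPKM with AI-10-49 (SD, n = 3; log2 fold change -0.48). The row of ARHGAP27 and PLEKHM1 read 36.8 ± 1.74 and 29.7 ± 0.34 FPKM (-0.30). The row of ARHGAP39, C8orf82 and LRRC24 read 34.4 ± 1.38 and 24.1 ± 1.96 FPKM (-0.49). All 3 were lower with AI-10-49 in every library.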
